A study of Drosophila melanogaster with 15 samples.

Results

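The genes described here encode kinases, phosphatase subunits and ubiquitin ligase parts that act on PERIOD (PER) and TIMELESS (TIM), the repressor proteins of the Drosophila circadian clock. They were chosen as a list of 9 FlyBase symbols: the kinases dco (doubletime), sgg (shaggy), CkIIalpha, CkIIbeta and nmo (nemo), the phosphatase regulatory subunits tws (twins) and wdb (widerborst), and the F-box proteins slmb and jet (jetlag). Of the 9 symbols, 8 were matched to a gene among the 17558 genes of the count table, and slmb was not analysed here because its current identifier matched no row. All 8 passed the filter on low counts and were among the 10678 genes tested.

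In the clock, PER and TIM accumulate, enter the nucleus and repress the activators of their own genes, and the pace of the cycle is set largely after transcription. Doubletime, a casein kinase 1, phosphorylates PER and marks it for SLMB, the F-box protein that sends it to the proteasome. Shaggy (glycogen synthase kinase 3) and casein kinase 2 phosphorylate TIM and PER and promote their entry into the nucleus, protein phosphatase 2A (PP2A) removes phosphates from PER, and JET is needed for the light-driven loss of TIM. The compound eye holds a clock of its own in its photoreceptors.

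Nuclear RNA was sequenced from male flies aged 10, 20, 25, 30 and 40 days after eclosion, with 3 libraries at each age. One day 30 library, which the study set aside for poor mapping, was left out, so day 30 had 2 libraries and 14 were analysed. Flies of every age were labelled wild type and had the same genotype, with UAS-GFP-Msp300KASH at attP2 and rh1-GAL4 on the third chromosome in a w, ry[506] background. The KASH domain places the green fluorescent protein on the outer face of the nuclear membrane, and nuclei were pulled from homogenates of pooled heads with an antibody against it. Rh1 is the opsin of the outer photoreceptors R1 to R6, but the study also found the driver active in sensory neurons of the antenna. Males of all ages were collected late in the morning, so each library is 1 collection time and says nothing of a rhythm. Whether all libraries shared a clock phase was not tested.

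Depth ranged from 6213255 to 19819118 read pairs counted on genes per library (median 10951727). Levels are given in CPM, a gene's read pairs scaled to a common library size after TMM adjustment. The 8 outer photoreceptor markers (among them ninaE, trp and norpA) summed to 94610 to 136500 CPM at day 40 and 75420 to 112600 CPM at day 10, and none was at 0. Among the other cell types, 3 muscle markers (Mhc, Mlc2 and Act88F) summed to 465 to 629 CPM at day 40 and 187 to 420 CPM at day 10. The 4 markers of antennal mechanosensory neurons summed to 9.55 to 19.2 CPM at day 40 and 19.1 to 31.8 CPM at day 10, and 1 of the 4 was at 0 in most libraries. Day 40 replicate 3 stood apart in clock genes, and results that rest on it are given with and without it. Replicates of an age differed from each other by more than counting noise, and p-values measure the spread between libraries of an age.

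The mean level over the 14 libraries put sgg in the top few percent of the tested genes, at percentile 98.7, and jet near the middle, at percentile 56.2. Divided by the length of the merged exons, sgg was the highest at 86.2 ± 9.74 CPM per kb (SD, n = 14 libraries), followed by wdb at 82.8 ± 4.03 CPM per kb. Then came dco at 41.8 ± 4.88, CkIIalpha at 39.1 ± 4.02 and tws at 38.2 ± 12.9 CPM per kb. The lowest were nmo at 15.9 ± 2.61, CkIIbeta at 14.7 ± 2.38 and jet at 11.5 ± 1.68 CPM per kb. Some neighbours in this order were not separated by the spread between libraries: sgg was above wdb in 9 of 14 libraries, dco above CkIIalpha in 11, CkIIalpha above tws in 10 and nmo above CkIIbeta in 11. In contrast, wdb was above dco and tws above nmo in all 14 libraries, and CkIIbeta was above jet in 13. These are levels of nuclear RNA per length of annotated exon, and an isoform that uses only part of the exons would be understated. The counts behind them ran from 91 (jet) to 21383 (sgg) per library.

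Across the 5 ages, only CkIIbeta passed the age test among the 8 genes. This test fits age and its square to the raw counts with edgeR and tests the 2 coefficients together, at an adjusted p (Benjamini-Hochberg over all 10678 genes) of 0.05, and its direction is the fitted day 40 value against the fitted day 10 value. The background share was 8.35% of all tested genes past the threshold in either direction and 3.44% lower at day 40, so 1 of 8 is near the background and is not a result about the list. The fitted log2 changes of the 8 genes had a median of -0.13 and ran from -0.45 (CkIIbeta) to 0.63 (tws), against a median of 0.0092 over all tested genes. All 5 kinases had negative fitted changes (median -0.18), whereas 5255 of the 10678 tested genes had one. The 5 negative signs held in 22 of 23 alternative fits, the exception being scaling by library size alone, under which dco was slightly positive (0.034). These fits reuse the same libraries, so their agreement adds no support. CkIalpha (-0.37), gish (-0.074) and Pka-C1 (-0.28), kinases outside the 8 genes, were also negative in the age test. The shared sign was less stable between pairs of ages: all 5 were negative in 20 of 22 alternatives at day 30, in 16 of 22 at day 40, and in 0 of 22 at day 20 and at day 25, each against day 10. Under scaling by library size alone the median of all genes in the age test moved up by 0.12.

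**Figure D1:**
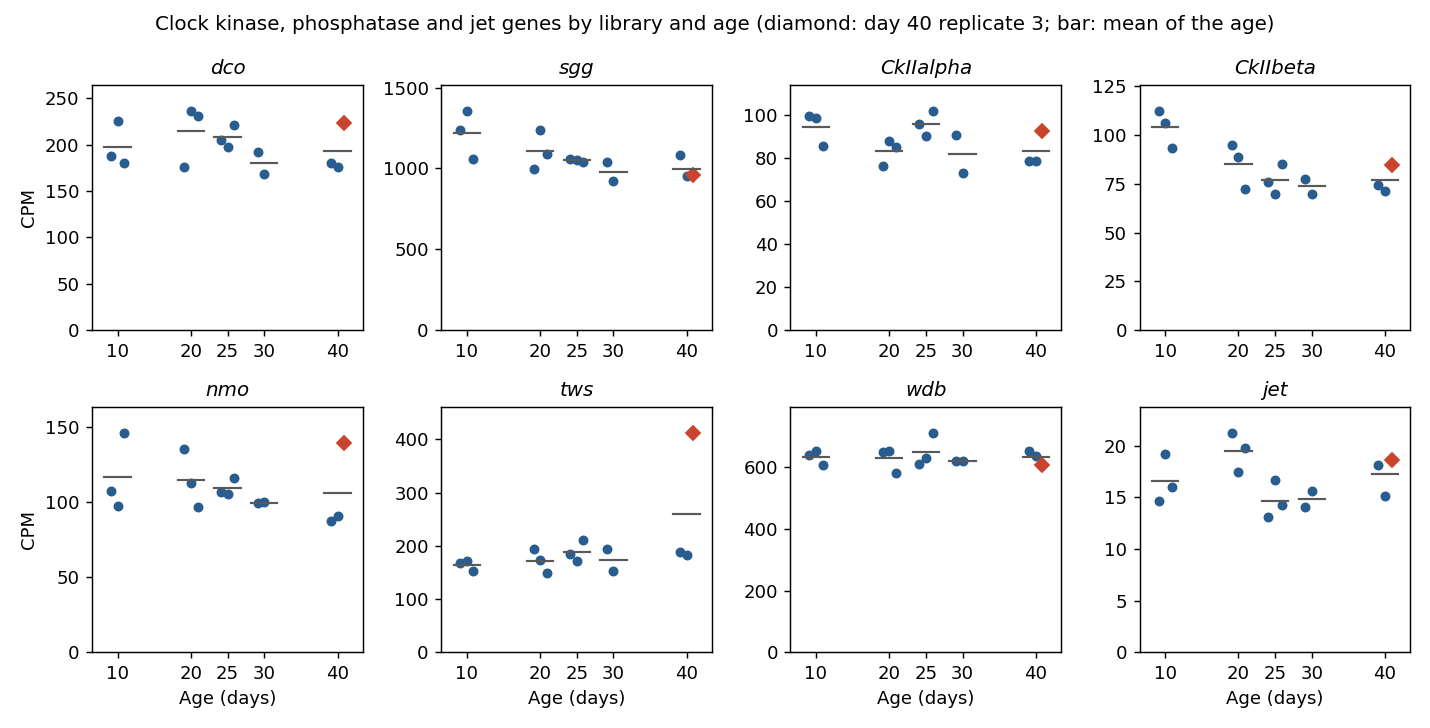
CPM (y axes, linear from 0) of the 8 genes in each of the 14 libraries by age in days (x axes), with a bar at the mean of each age and a red diamond for day 40 replicate 3. CkIIbeta lies between 69.7 and 85.3 CPM in the 8 libraries from day 25 on, under all 3 day 10 libraries, and tws reaches 412 CPM in day 40 replicate 3.

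CkIIbeta (FBgn0000259, X:11792533-11801587, plus strand, BDGP6) encodes the regulatory subunit of casein kinase 2, a holoenzyme of catalytic alpha and regulatory beta subunits. Its level was 112, 106 and 93.3 CPM at day 10, 94.6, 88.4 and 72.5 CPM at day 20, and 75.9, 70.0 and 85.3 CPM at day 25. It was 77.6 and 69.7 CPM at day 30, and 74.5, 71.4 and 84.7 CPM at day 40. Every library from day 25 on was thus under every day 10 library, the day 20 libraries straddled the boundary, and day 25, day 30 and day 40 overlapped each other. In the age test the fitted change was -0.45 on the log2 scale (edgeR adjusted p = 0.0288), and CkIIbeta ranked 592 of 10678 genes by p. Without day 40 replicate 3 the change was -0.52 and the call held (edgeR adjusted p = 0.0238), beside a background of 5.92% of 10632 genes.

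In the 2 end groups alone, CkIIbeta averaged 76.9 ± 6.97 CPM at day 40 and 104 ± 9.63 CPM at day 10 (SD, n = 3 each). The change was 0.741-fold, or -0.43 ± 0.14 (SE) on the log2 scale with a 95% interval of -0.72 to -0.14, and it missed the threshold in edgeR (adjusted p = 0.0529). DESeq2 on the same counts gave -0.46 and an adjusted p of 0.0177, beside a DESeq2 background of 14.8% of genes past the threshold. Over 22 alternatives of this contrast the change ran from -0.51 to -0.32, and 5 passed the threshold. Scaling by library size alone gave -0.32 (edgeR adjusted p = 0.142). The change was already -0.43 at day 25 (edgeR adjusted p = 0.141) and -0.50 at day 30 (edgeR adjusted p = 0.154), after -0.29 at day 20 (edgeR adjusted p = 0.613). Between day 40 and day 20 it was -0.15 (edgeR adjusted p = 0.671). These contrasts share the day 10 libraries and are not independent of each other.

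The CkIIbeta call in the age test depended on single libraries of day 10, day 30 and day 40. It was lost without day 10 replicate 1 (edgeR adjusted p = 0.137), day 10 replicate 2 (0.102), day 30 replicate 2 (0.0570), day 40 replicate 1 (0.0503) or day 40 replicate 2 (0.0577), while the change stayed between -0.52 and -0.40 over the 14 fits. The ratio of read pairs on no annotated feature to gene counts was 42.4, 52.5 and 56.4 per 100 at day 40 and 60.7, 100 and 103 per 100 at day 10, so it was lower in every day 40 library. With that ratio as a covariate the age test gave -0.45 (edgeR adjusted p = 0.0602). At day 40 against day 10 the same covariate gave -0.38 (edgeR adjusted p = 0.499). The summed muscle markers also separated day 40 from day 10. Of the markers, the muscle gene Mlc2 (1.00) and the fat body gene Yp1 (8.39) were higher in the age test. The glial gene nrv2 (-0.62) was lower, and all 3 also passed without day 40 replicate 3. Yp1 ran from 0.073 to 53.7 CPM, with a median of 1.39 CPM, in the 13 libraries other than day 40 replicate 3. The fat body gene Lsp2 (-0.66) and the glial gene moody (0.31) went the other way, without passing the threshold. The other muscle and glial markers shared the sign of Mlc2 and nrv2 over the 14 libraries, also without passing it. The summed glial markers overlapped (438 to 495 CPM at day 40 and 470 to 621 CPM at day 10). So did the summed fat body markers (19.9 to 71.6 CPM at day 40 and 23.8 to 41.1 CPM at day 10). The part of these cell types in the result was not tested. In nuclei of mixed origin, fewer nuclei of a type and less RNA per nucleus cannot be told apart.

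CkIIalpha (FBgn0264492, 3L:23097072-23103460, plus strand) encodes the catalytic subunit of the same enzyme, and its level moved less. It was 99.3, 98.4 and 85.6 CPM at day 10, 76.1, 88.1 and 85.2 CPM at day 20, and 95.7, 90.2 and 102 CPM at day 25. It was 90.6 and 73.2 CPM at day 30, and 78.4, 78.6 and 92.4 CPM at day 40, where the range overlapped that of day 10. The age test gave -0.16 (edgeR adjusted p = 0.682), and day 40 against day 10 gave -0.18 ± 0.13 (SE; edgeR adjusted p = 0.411) with a 95% interval of -0.46 to 0.09, which includes the estimate for CkIIbeta.

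The ratio of CkIIbeta to CkIIalpha was taken within each library, where scaling between libraries has no part. It was 1.13, 1.08 and 1.09 at day 10, 1.24, 1.00 and 0.851 at day 20, and 0.793, 0.776 and 0.838 at day 25. It was 0.857 and 0.952 at day 30, and 0.950, 0.908 and 0.917 at day 40. The ratio was therefore above 1 in all 3 day 10 libraries and under 1 in all 8 libraries from day 25 on, while day 20 spanned both. These CPM are not divided by exon length, so a ratio of 1 does not mark equal levels of the subunits. Per kb of merged exon, CkIIbeta averaged 14.7 CPM and CkIIalpha 39.1 CPM. The mean ratio was 0.925 ± 0.0221 at day 40 and 1.10 ± 0.026 at day 10 (SD, n = 3 each), a difference of -0.25 on the log2 scale. An exact two-sided permutation test over samples gave p = 0.1, the smallest that 3 against 3 libraries can give. The same exact p of 0.1 was reached at day 25 (0.802 ± 0.032) and day 30 (0.905 ± 0.0673), and day 20 (1.03 ± 0.198) gave an exact p of 0.7. In these 4 comparisons with day 10, no p could pass 0.05 by design. With any one of the 6 day 10 and day 40 libraries left out, the day 40 difference was between -0.27 and -0.23.

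**Figure D2:**
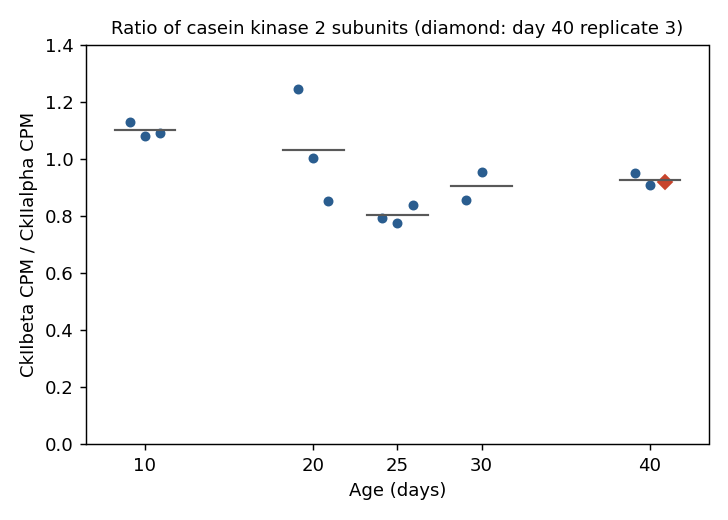
Ratio of CkIIbeta CPM to CkIIalpha CPM (y axis, no unit, from 0) in each of the 14 libraries by age in days (x axis), with a bar at the mean of each age and a red diamond for day 40 replicate 3. The 3 day 10 libraries lie between 1.08 and 1.13, and the 8 libraries from day 25 on lie between 0.776 and 0.952.

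sgg (FBgn0003371, X:2633952-2679553, plus strand) is the fly glycogen synthase kinase 3, which also restrains Wnt signalling. Its level was 1239, 1354 and 1061 CPM at day 10, 997, 1238 and 1087 CPM at day 20, and 1058, 1053 and 1038 CPM at day 25. It was 1038 and 921 CPM at day 30, and 1083, 954 and 961 CPM at day 40. The highest day 40 library lay just above the lowest day 10 library, so the groups overlapped. The age test gave -0.31 (edgeR adjusted p = 0.165), and day 40 against day 10 gave -0.29 ± 0.13 (SE; edgeR adjusted p = 0.172). The unadjusted p of that contrast was 0.0394, and 2673 of the 10678 genes had one under 0.05. The earlier contrasts with day 10 were -0.14 at day 20, -0.21 at day 25 and -0.31 at day 30 (edgeR adjusted p = 0.347 at day 30). In the annotation used here, 1470 bases of sgg exon are shared with lncRNA:CR45197 on the same strand, and read pairs that lie in both are left uncounted by the default counting the study names.

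dco (FBgn0002413, 3R:31054085-31061210, minus strand) averaged 193 ± 26.1 CPM at day 40 and 198 ± 24.5 CPM at day 10 (SD, n = 3 each). Its highest age mean was 214 ± 33.1 CPM at day 20 and its lowest 180 ± 16.4 CPM at day 30. The 14 libraries ranged from 169 to 236 CPM, and the ranges of day 40 and day 10 overlapped. The age test gave -0.089 (edgeR adjusted p = 0.813), and day 40 against day 10 gave -0.034 ± 0.14 (SE), with a 95% interval of -0.33 to 0.26.

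nmo (FBgn0011817, 3L:7979046-8054147, plus strand) encodes a proline-directed kinase related to the mammalian Nemo-like kinase, and in flies it acts on PER and on CLOCK stability. Its level was 87.6, 91.2 and 139 CPM at day 40 and 108, 97.6 and 146 CPM at day 10. One library in each group was far above its 2 neighbours, day 40 replicate 3 and day 10 replicate 3, and the groups overlapped. The other ages lay between 97.1 and 135 CPM. Day 40 against day 10 gave -0.14 ± 0.18 (SE; edgeR adjusted p = 0.686), and without day 40 replicate 3 it gave -0.39 ± 0.17 (SE; edgeR adjusted p = 0.206). In the age test the 2 values were -0.18 and -0.41, the second with an edgeR adjusted p of 0.226, so 1 library moved the estimate by more than 2 times without bringing it past the threshold.

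Both PP2A regulatory subunits are among the 8 genes, and they behaved differently between libraries. wdb (FBgn0027492, 3R:27561675-27582241, minus strand), a B' subunit, was the steadiest of the 8 genes, with a coefficient of variation of 4.87% over the 14 libraries. It was 653, 637 and 607 CPM at day 40 and 641, 654 and 608 CPM at day 10, and all libraries lay between 583 and 710 CPM. The groups overlapped almost fully, and the change at day 40 against day 10 was -0.0052 ± 0.11 (SE), with a 95% interval of -0.24 to 0.23.

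tws (FBgn0004889, 3R:10126129-10139772, minus strand), a B subunit of PP2A, was 168, 172 and 153 CPM at day 10, 194, 174 and 149 CPM at day 20, and 185, 171 and 211 CPM at day 25. It was 194 and 154 CPM at day 30, and 188, 182 and 412 CPM at day 40. The value of 412 CPM, from 7328 read pairs, belongs to day 40 replicate 3 and is 0.96 on the log2 scale above the next highest library. Of the 10678 tested genes, 40 had a gap above the other 13 libraries at least as large in that library. The coefficient of variation of tws was 33.7% over 14 libraries and 10.3% over the 13 without it.

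With all 14 libraries tws was 0.67 ± 0.23 (SE) higher on the log2 scale at day 40 against day 10, with a 95% interval of 0.18 to 1.16, and missed the threshold (edgeR adjusted p = 0.0762). Without day 40 replicate 3 the change was 0.17 ± 0.15 (SE; edgeR adjusted p = 0.559), beside a background of 5.26% of 10632 genes. In the age test it was 0.63 (edgeR adjusted p = 0.0978), and 0.17 (edgeR adjusted p = 0.666) without that library. Leaving out day 40 replicate 1 or day 40 replicate 2 instead brought tws past the threshold of the age test (edgeR adjusted p = 0.047 and 0.0457). The 2 other day 40 libraries were still above all 3 day 10 libraries, though within the range of day 20, day 25 and day 30.

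**Figure D3:**
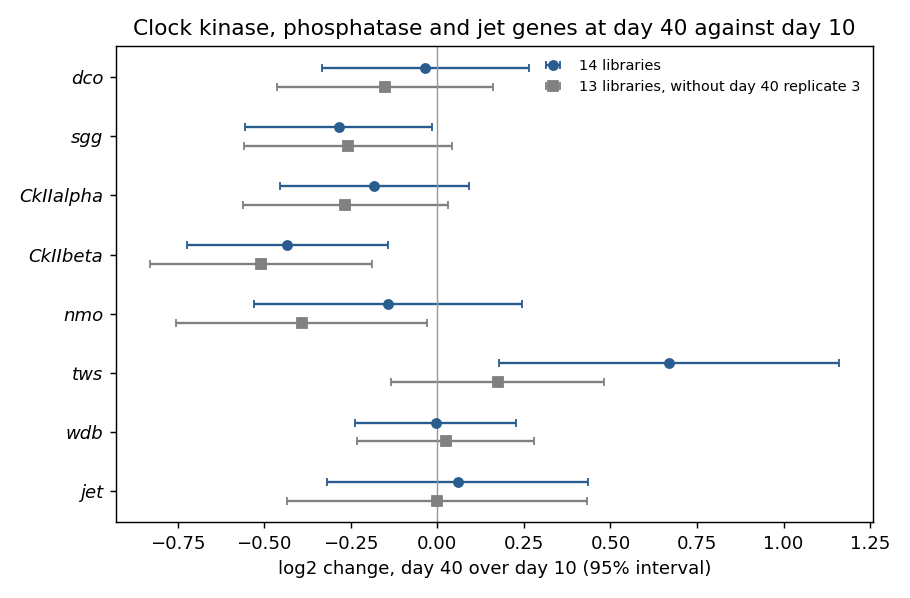
Log2 change at day 40 over day 10 (x axis) for the 8 genes, with 95% intervals from the edgeR fit, in the fit of 14 libraries (blue circles) and in the fit of 13 libraries without day 40 replicate 3 (grey squares). The interval of CkIIbeta is under 0 in both fits, that of tws spans 0 without the library (0.17 against 0.67), and those of dco, CkIIalpha, wdb and jet span 0 in both.

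jet (FBgn0031652, 2L:4948206-4949784, minus strand), whose protein brings light-activated TIM to the ubiquitin ligase, was the lowest of the 8 genes. It was 18.1, 15.1 and 18.7 CPM at day 40 and 14.6, 19.2 and 16.0 CPM at day 10, with full overlap. Day 20 was highest at 19.5 ± 1.89 CPM and day 25 lowest at 14.7 ± 1.86 CPM (SD, n = 3 each). None of its contrasts with day 10 passed the threshold, and day 40 against day 10 gave 0.059 ± 0.18 (SE), with a 95% interval of -0.32 to 0.44. Its counts were as low as 91 in a library, and its exons share 119 bases with betaggt-I on the opposite strand.

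Pairs of ages gave no call among the 8 genes in edgeR. For day 40 and day 10, 10.4% of the 10678 genes were past the threshold and 0 of the 8, of which 3 had an unadjusted p under 0.05 (CkIIbeta, sgg and tws), and DESeq2 called 1 (CkIIbeta) beside its own 14.8%. At day 30 against day 10 the background was 0.871%, with 0 of the 8 past the threshold in edgeR, 2 at an unadjusted p under 0.05 and 1 (CkIIbeta) in DESeq2, whose own background was 4.27%. At day 25 against day 10 it was 0.974%, with 0 of the 8 in edgeR and in DESeq2 (background 4.03%) and 1 at an unadjusted p under 0.05. At day 20 against day 10 it was 0.00937%, or 1 gene in all, with 0 of the 8 in edgeR and in DESeq2 (background 0.459%) and 0 at an unadjusted p under 0.05. At day 40 against day 20 it was 1.13%, with 0 of the 8 in edgeR and in DESeq2 (background 3.48%) and 1 (tws) at an unadjusted p under 0.05. The CPM of day 40 and day 10 did not overlap in 2 of the 8 genes, CkIIbeta and tws, beside 28.6% of all tested genes.

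Day 40 replicate 3 differed between the 8 genes. Of the 14 libraries it ranked 1 from the top for tws, 2 for nmo, 4 for dco and jet, 5 for CkIIalpha, 7 for CkIIbeta, 12 for sgg and 13 for wdb. In the core clock, whose transcripts cycle over the day, it stood much farther out: per was at 687 CPM there and at 58.6 to 127 CPM in the other 13 libraries, and tim at 4116 and 338 to 629 CPM. Clk, which encodes the activator of per and tim, was at 94.5 CPM there and at 309 to 492 CPM in the others. Day 40 replicate 1 and day 40 replicate 2, of the same age, were at 102 and 127 CPM for per and 609 and 576 CPM for tim. For Clk they were at 391 and 329 CPM. The clock phase of day 40 replicate 3 was not tested, nor was the reason it differed from them. The library was highest of 14 in 13.9% and lowest in 12.5% of all tested genes. Most of the 8 kinase, phosphatase and F-box genes lay inside the range of the other libraries there, as did most of all tested genes. Their position is thus near the background and is not a result about the list. By contrast, per, tim, vri, Pdp1 and cwo lay above that range.

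**Figure D4:**
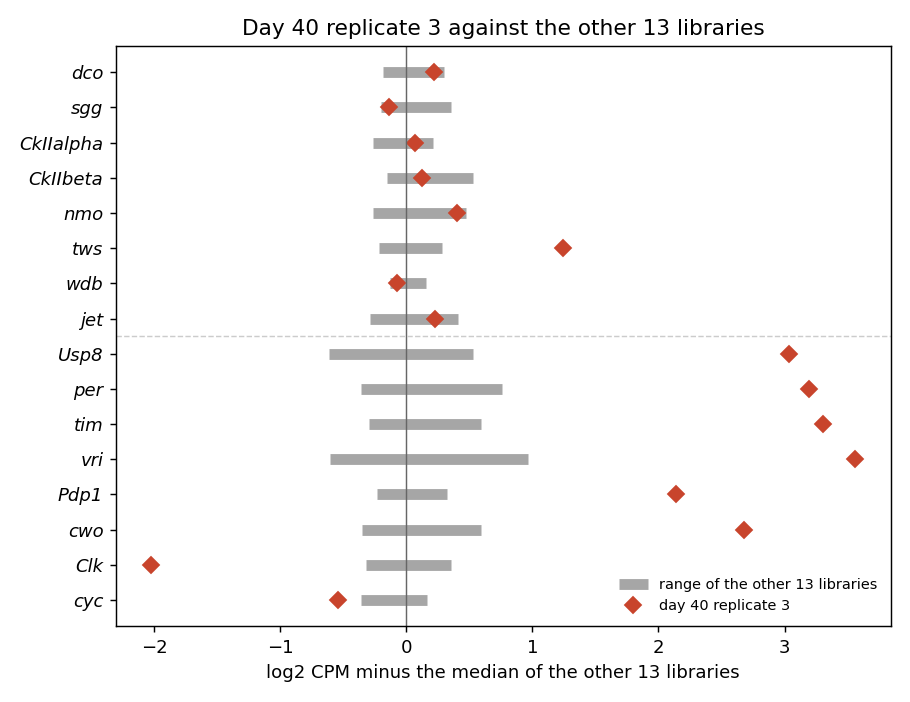
Log2 CPM in day 40 replicate 3 (red diamonds) minus the median of the other 13 libraries (x axis), with grey bars for the range of those 13 libraries. Above the dashed line, 7 of the 8 genes lie inside their bar and tws lies 0.96 above it; below the line, Usp8 and 5 clock genes lie above their bars and Clk and cyc below theirs.

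Other genes of the pathway were read from a list of 26, of which 25 were matched and tested. In the age test 1 was past the threshold and higher (Usp8) and 1 lower (flw), beside the 8.35% background. Usp8, a deubiquitinase that in flies removes ubiquitin from CLOCK, was at 652 CPM in day 40 replicate 3 and at 51.85 to 114.5 CPM in the other 13 libraries. Its fitted change was 2.01 (edgeR adjusted p = 0.0152), and 0.44 (edgeR adjusted p = 0.237) without that library, which thus decided the call. The call was also lost with the ratio of no-feature pairs as a covariate and with the replicate number as a block. These were the only other exceptions among the alternatives that gave Usp8 an adjusted p, which were 22 of 23.

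flw (flapwing), a catalytic subunit of protein phosphatase 1, fell. It was 452, 412 and 366 CPM at day 40 and 577, 551 and 497 CPM at day 10, with every day 40 library under every day 10 library. All other libraries, from day 20 to day 30, were also under the lowest day 10 library, at 344 to 452 CPM. The age test gave -0.42 (edgeR adjusted p = 0.0221) and -0.36 without day 40 replicate 3 (edgeR adjusted p = 0.0296). The call was lost under scaling by library size alone and without day 10 replicate 1 or day 10 replicate 2, and adjusted p reached 0.133 among 23 alternatives. At day 30 against day 10 flw was -0.60 (edgeR adjusted p = 0.0465), a call that held in 8 of 22 alternatives, with adjusted p up to 0.276. At day 40 against day 10 it was -0.40 (edgeR adjusted p = 0.0420), which held in 7 of 22 alternatives, with changes from -0.47 to -0.12 and adjusted p up to 0.849. Both calls were lost under library size alone, under the replicate block and without day 10 replicate 1, among others.

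The remaining groups gave no calls in the age test in edgeR. Of the 4 other kinases and partners, CkIalpha was at -0.37 (edgeR adjusted p = 0.110) and Pka-C1 at -0.28 (edgeR adjusted p = 0.207). The catalytic and scaffold subunits of PP2A were at 0.15 (mts) and -0.062 (Pp2A-29B), with edgeR adjusted p of 0.690 and 0.868. In the SCF ubiquitin ligase, which uses F-box proteins such as SLMB and JET to pick its targets, the cullin Cul1 was at -0.33 (edgeR adjusted p = 0.0639), while SkpA was at 0.043 and Roc1a at -0.11. The 8 subunits of the COP9 signalosome, which removes NEDD8 from cullins, had a median of 0.095, with 6 positive and 2 negative. Among all 25 genes 12 were positive and 13 negative, with a median of -0.023, and 6 had an unadjusted p under 0.05, beside 2573 of the 10678 genes tested.

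**Figure D5:**
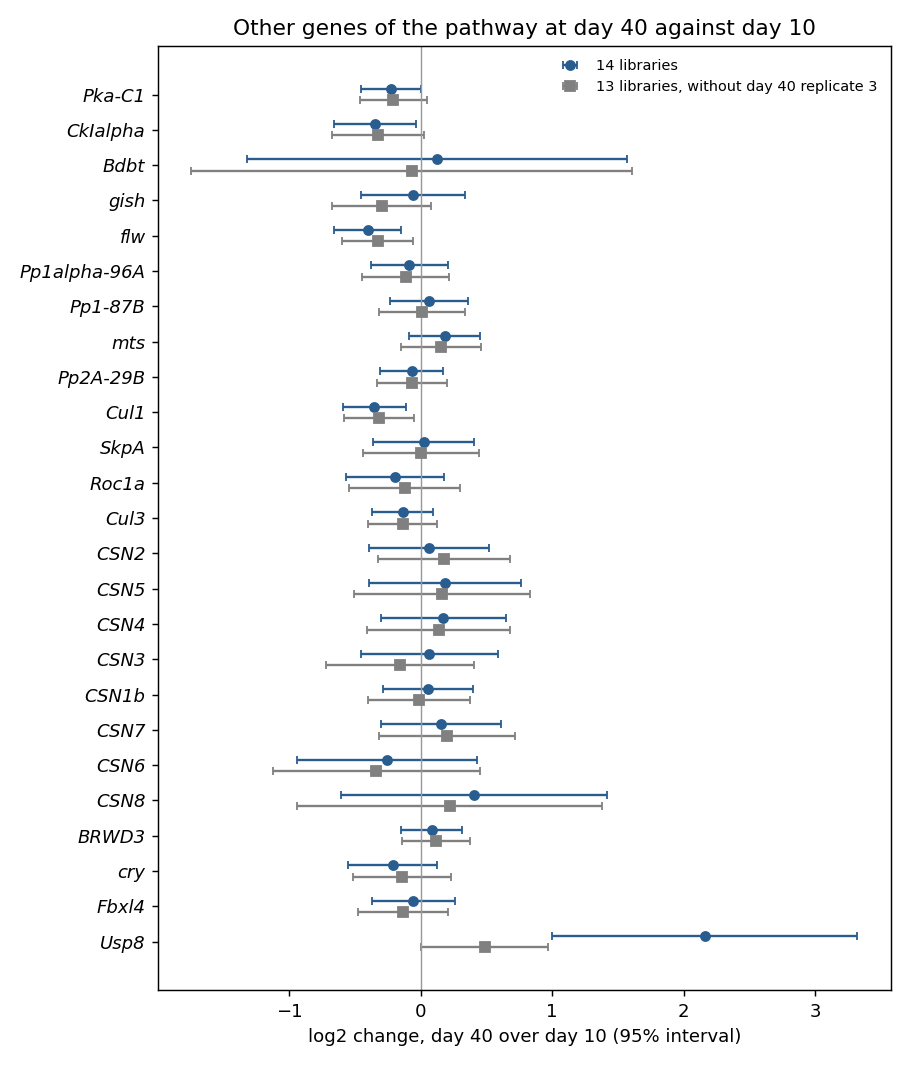
Log2 change at day 40 over day 10 (x axis) for the 25 other genes of the pathway, grouped from other kinases at the top through phosphatase, ubiquitin ligase and COP9 subunits to other turnover regulators, with 95% intervals from the edgeR fit of 14 libraries (blue circles) and of 13 without day 40 replicate 3 (grey squares). The estimate of Usp8 is 2.16 with the library and 0.49 without it, and flw is at -0.40 and -0.33.

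Over the 14 libraries, the genes whose log2 CPM ran closest to each member were sought among 5777 genes with a mean of at least 10 CPM, by Pearson correlation. Each point is a library, the points share age and library effects, and these values are a description. sgg ran closest to CycG (r = 0.965) and CkIIalpha to wac (r = 0.970), and both stayed first over the 13 libraries without day 40 replicate 3 (r = 0.967 and 0.971). CkIIbeta ran closest to slgA (r = 0.90) and mamo (r = 0.899), the same 2 genes over 13 libraries. tws ran closest to Usp8 (r = 0.977), and over 13 libraries to NK7.1 (r = 0.909) and then Usp8 (r = 0.845). For dco, nmo, wdb and jet the closest genes reached r = 0.823, 0.890, 0.743 and 0.808. Among the 8 genes themselves, the highest was sgg with CkIIbeta (r = 0.659), followed by dco with CkIIalpha (r = 0.643), while the subunits of casein kinase 2 had r = 0.470. The value for tws with wdb was 0.0364 over 14 libraries and 0.702 over the 13 without day 40 replicate 3, so 1 library set it.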

How the data were processed

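Per the labels and the study's methods, the authors trimmed reads with Trimmomatic, aligned them with TopHat to BDGP6 and counted read pairs over exons with strand-specific HTSeq. They deposited raw counts (17558 genes, 15 libraries), the same counts for a filtered gene set and its CPM, which was not used. Column names and sample descriptions number replicates differently, so columns numbered 1 and 2 were assigned to their age only, and replicate numbers are those of the columns.

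Raw counts were tested with edgeR 4.0.16 (R 4.3.3; glmQLFit and glmQLFTest, TMM scaling). The filter kept genes above 1 CPM in 3 or more libraries, and Benjamini-Hochberg adjustment ran over all genes kept. Log2 CPM used a prior count of 2. Contrasts came from a fit with a mean per age, and intervals cover 95%. DESeq2 1.42.0, other scalings, filters, covariates, a replicate block and omission of each library were alternatives. Fits were tested on simulated data. A floor of 3 counts corresponds to 0.151 to 0.483 CPM across libraries and covers counting error only.

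All 8 matched members are described whatever their result, with a further list of pathway genes. Members and lists were chosen with earlier results of these data known. Symbols, coordinates and exon lengths came from Ensembl annotation of BDGP6, whose gene models can differ from the authors'. Besides slmb, the listed genes S6k and FASN1 matched no row, and no promoter or protein sequence was analysed here.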

Additional observations from a re-analysis of the deposited data

Results flagged for a closer look

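The day 30 replicate 3 library, set aside by the study and used in none of the comparisons above, held 518520 gene counts and still gave counts above 3 for each of the 8 genes, which is why they are listed here. In that library sgg was at 1016 CPM (exact Poisson 95% interval 931 to 1107), wdb at 609 CPM (544 to 681), dco at 201 CPM (164 to 243), tws at 189 CPM (153 to 230) and nmo at 139 CPM (109 to 175). These 5 values lay inside the range of the 14 libraries analysed. CkIIalpha was at 71.4 CPM (50.2 to 98.4) and CkIIbeta at 63.6 CPM (43.8 to 89.4). Each was just under the lowest of the 14 libraries, with an interval that overlaps their range. CPM of the set-aside library was scaled by its gene counts alone, without the TMM adjustment applied to the 14 libraries. Their TMM factors ran from 0.887 to 1.10, so a value near the edge of a range cannot be placed inside or outside it. jet was at 13.5 CPM from 7 counts (5.43 to 27.8). The intervals cover counting error only.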

How the results depend on the processing

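CkIIbeta, the 1 of 8 genes past the threshold in the age test, stayed past it in 15 of 22 alternatives, with adjusted p from 0.00233 to 0.138. The count of the 8 genes past the threshold in the age test was 0 with scaling by library size alone (889 of all genes). This count was 0 with the no-feature ratio as a covariate (436 of all genes). It was 2 with no filter on low counts (tws added), beside 1272 of all genes. With a library left out it was 0 to 1, beside 472 to 1134 of all genes (tws in place of CkIIbeta without day 40 replicate 1 or day 40 replicate 2). Between day 40 and day 10 it was 1 with DESeq2, DESeq2 size factors or the genes of the authors' filtered table (CkIIbeta; 1577, 1145 and 1124 of all genes), 1 with library size alone or no filter (tws; 1096 and 1494 of all genes), and 0 to 1 with a library left out. It was 1 at day 30 against day 10 with DESeq2 (CkIIbeta, beside 376 of all genes). At day 40 against day 20 it was 1 with no filter (tws, beside 494 of all genes). For those contrasts it was 0 with a library left out. The causes were not tested.

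No gene past the threshold changed sign. Changes that turned sign, all log2, were these. With library size alone they were dco 0.034, wdb 0.12 and jet 0.063 in the age test, and dco 0.076 and wdb 0.11 at day 40 against day 10. At day 30 they were dco 0.071, wdb 0.17 and jet 0.046, at day 25 nmo 0.011, and at day 20 nmo 0.069 and wdb 0.098, each against day 10. With the no-feature covariate they were wdb 0.0024 in the age test, and dco 0.14, sgg 0.027, wdb 0.097 and jet -0.012 at day 40. They were nmo 0.11 at day 30, and tws -0.030 and wdb 0.010 at day 20, each against day 10, and sgg 0.094 at day 40 against day 20. With no filter wdb was 0.0038 at day 40 against day 10. CkIIalpha and wdb, at day 40 against day 20, were -0.0096 and -0.0026 with DESeq2 size factors, -0.0086 and -0.0027 with DESeq2, and -0.015 and -0.0075 with the authors' genes. With a library left out, the age test ranged from -0.034 to 0.017 for wdb and -0.16 to 0.016 for jet. Ranges between day 40 and day 10 were -0.15 to 0.071 (dco), -0.39 to 0.049 (nmo), -0.035 to 0.024 (wdb) and -0.022 to 0.18 (jet). They were -0.096 to 0.25 (tws) at day 30. At day 25 they were -0.045 to 0.064 (CkIIalpha), -0.22 to 0.090 (nmo) and -0.033 to 0.079 (wdb). At day 20 they were -0.15 to 0.16 (nmo), -0.013 to 0.16 (tws) and -0.043 to 0.039 (wdb). At day 40 against day 20 they were -0.083 to 0.049 (CkIIalpha), -0.36 to 0.019 (nmo) and -0.044 to 0.037 (wdb).

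Same-numbered libraries showed no common deviation from their age means (r from -0.16 to 0.13 over 26 pairs, 1 over 0.1). Deviations from an age mean cancel out within the age, so this check cannot exclude a shared batch. With the replicate block, 1 of the 8 genes (CkIIbeta, -0.45, adjusted p = 0.0474) and 676 of all genes passed the age test. The block turned nmo to 0.0035 at day 20 against day 10 and CkIIalpha to -0.0012 at day 40 against day 20.

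Over all tested genes, calls in the age test were 892 (58.9% higher), against 889 (79.5% higher) with library size alone, 1486 (48.6% higher) with DESeq2 and 436 with the no-feature covariate, and 472 to 1134 with a library left out. At day 40 against day 10 they were 1109 (55.5% higher), against 1096 (70.5% higher) with library size alone, 1577 (46.3% higher) with DESeq2, 1145 (49.2% higher) with DESeq2 size factors, 197 with the covariate and 542 to 1252 with a library left out. With all libraries kept, calls ranged from 36 (block) to 499 (covariate) at day 30, beside 93, and from 51 (block) to 460 (no filter) at day 25, beside 104. They reached 128 (no filter) at day 20, beside 1, and ranged from 73 (block) to 494 (no filter) at day 40 against day 20, beside 121. With a library left out, they were 9 to 209 at day 30, 19 (without day 10 replicate 1) to 252 at day 25, 0 to 27 at day 20, and 50 (without day 20 replicate 2) to 232 at day 40 against day 20.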
